A study of Mus musculus with 8 samples.

Results

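The genes described here carry iron and haem through the liver, and 10 of them were followed across 4 cell populations isolated from injured mouse liver: Hmox1, Slc40a1, Slc11a1, Slc48a1, Blvrb, Tfrc, Fth1, Ftl1, Trf and Cp. The genes were taken by symbol from the gene column of the deposited tables, which held 21968 named genes. All 10 were found, and all 10 were among the 14404 genes that passed the filter on low counts. The 4 groups were cells sorted as positive for β-galactosidase activity and high for F4/80 (b-gal+ F4/80high), cells negative for that activity and high for F4/80 (b-gal- F4/80high), EpCAM-positive cells, and hepatocytes. Every group came from Lgr5-LacZ transgenic mice on a mixed C57BL/6 and CBA background, aged 10-12 weeks by the sample labels and 7-12 weeks by the series description. All mice had received 1 intraperitoneal dose of carbon tetrachloride, CCl4, at 1 µl per g in rapeseed oil, and livers were taken on day 6, so no group was uninjured and none lacked the transgene. CCl4 is a solvent that kills hepatocytes around the central veins. Each group had 2 RNA sequencing libraries, and each library held cells pooled from 2 mice. The β-galactosidase sort read enzyme activity from a fluorescent substrate, and the series title attributes that activity to the cells' own enzyme. Hepatocytes were pelleted by slow centrifugation, whereas the remaining cells went through red cell lysis before sorting.

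Macrophages of the liver, the Kupffer cells, take up worn red cells, digest haemoglobin and open the haem ring with haem oxygenase, which releases iron, carbon monoxide and biliverdin. The iron is either stored in ferritin, a shell built of heavy and light chains, or exported to plasma by ferroportin, where ceruloplasmin oxidises it and transferrin binds it. Cells take transferrin-bound iron back up through the transferrin receptor, and hepatocytes secrete both transferrin and ceruloplasmin as well as hepcidin, the hormone that removes ferroportin from the cell surface.

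When iron is scarce, iron regulatory proteins bind a short hairpin in messenger RNA, the iron-responsive element. Bound to a 5′ untranslated region the proteins block translation, and bound to the 3′ untranslated region of the transferrin receptor they keep its messenger from being degraded. The element was looked for in the spliced transcripts of GENCODE M21 (build GRCm38), on the sense strand, as a C, 5 bases, CAGTGN, and 5 bases that pair with the first 5 with at most 1 G-T pair. The element was found in 4 of the 10 genes, at 7 sites, against 182 of 21951 protein-coding genes (0.829%). Of 64 annotated genes in the wider lists described below, 2 held it, Alas2 and Ftl1-ps1. Hairpins that depart from this pattern were not looked for, so the sites need not be complete. The 7 windows of 30 bases are shown because they divide the genes into those with a hairpin before and those with hairpins after the coding sequence. Capitals mark the loop CAGTGN.
Fth1, 5′ untranslated region, chr19:9982732-9982761, plus strand: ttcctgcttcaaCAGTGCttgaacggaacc
Ftl1, 5′ untranslated region, chr7:45459778-45459807, minus strand: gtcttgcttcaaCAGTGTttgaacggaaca
Slc40a1, 5′ untranslated region, chr1:45925464-45925493, minus strand: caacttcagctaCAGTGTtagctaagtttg
Tfrc site 1, 3′ untranslated region, chr16:32631219-32631248, plus strand: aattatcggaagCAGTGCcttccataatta
Tfrc site 2, 3′ untranslated region, chr16:32631598-32631627, plus strand: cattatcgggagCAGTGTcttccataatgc
Tfrc site 3, 3′ untranslated region, chr16:32631663-32631692, plus strand: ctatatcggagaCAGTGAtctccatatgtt
Tfrc site 4, 3′ untranslated region, chr16:32631710-32631739, plus strand: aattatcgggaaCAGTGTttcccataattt
The 5 paired bases on each side of the loop were the same in Fth1 and Ftl1 (ttcaa before it and ttgaa after it), and the other 5 sites had other stems. The annotated ferritin copy Ftl1-ps1 on chromosome 13 carried the same 30 bases as Ftl1. The read counts are per gene, so they do not separate transcripts with the hairpin from transcripts without it, and translation was not measured.

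The libraries held 16948568 to 24549242 reads in named genes, recovered from the deposited values, so a count of 3 reads stood for 0.122 to 0.177 CPM (reads per 1000000 reads). Levels below are CPM scaled by the trimmed mean of M-values (TMM), and differences are log2 differences of CPM + 0.5 by limma, fitted to all 8 libraries, two-sided, with Benjamini-Hochberg adjustment over the 14404 genes and a call at an adjusted p under 0.05. The 12 Kupffer cell markers summed to 39853 and 37402 CPM for b-gal+ libraries, 4201 and 2854 for b-gal-, 1423 and 319 for EpCAM-positive and 403 and 290 for hepatocyte libraries. The 12 markers of sinusoidal endothelium ran differently, at 4323 and 3224 CPM for b-gal+ libraries, 22995 and 27103 for b-gal-, 9970 and 8435 for EpCAM-positive and 535 and 1221 for hepatocyte libraries. The b-gal- F4/80high libraries thus held more endothelial than Kupffer marker RNA, and their level of Adgre1, the gene for F4/80 itself, was 311 and 134 CPM against 1731 and 1361 CPM in b-gal+ libraries, a difference that did not pass the test (log2 2.91, SE 0.96, adjusted p = 0.073 by limma). It passed with DESeq2 (0.00488), in a limma fit of the F4/80high libraries alone (0.026) and without EpCAM-positive replicate 1 (0.00504) or 2 (0.00506), but not by edgeR (0.0954). The EpCAM-positive libraries held cholangiocyte markers (2147 and 7113 CPM), including Epcam at 88.5 and 214 CPM, but they also held the endothelial RNA above and B and plasma cell markers at 4097 and 1605 CPM. The cholangiocyte markers summed to 659 and 56.4 CPM for b-gal+, 1269 and 88.4 for b-gal- and 187 and 70.8 for hepatocyte libraries, where Epcam was at most 1.47 CPM. For the 12 hepatocyte markers the sums were 342 and 778 CPM (b-gal+), 205 and 450 (b-gal-), 745 and 5147 (EpCAM-positive) and 217959 and 306030 (hepatocytes). Erythroid markers summed to at most 21.6 CPM in every library, and the globin genes Hbb-bs, Hbb-bt, Hba-a1 and Hba-a2 were listed at 0 in all 8. Only 2 of the 9 erythroid markers in the tables passed the filter on low counts. The treatment of multi-mapped reads is not given in the sources used here, so a listed 0 need not mean absent RNA. Alas2, from the haem synthesis genes below, had 114 and 45.7 CPM in hepatocyte libraries and at most 1.30 CPM in any other. Its source was not tested. The part of these other cell types in the differences of the 10 genes was not tested, and in such bulk libraries a smaller number of cells of a type cannot be told apart from less RNA per cell.

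In b-gal+ F4/80high cells, 9 of the 10 genes rose relative to b-gal- F4/80high cells and none fell, where 10.4% of all tested genes were called higher and 13.0% lower (23.3% in either direction). The median log2 difference of the 10 genes was 2.12, against -0.02 over all tested genes. The steepest was Hmox1, haem oxygenase 1, at 11.0-fold, followed by Slc11a1 at 7.42-fold and the ferroportin gene Slc40a1 at 7.32-fold. Cp, ceruloplasmin, was the gene that did not pass the test. The count depended on the libraries. It fell with any 1 of the F4/80high libraries left out, and so did the count over all genes. Without b-gal- replicate 2 the log2 difference was 3.02 for Hmox1 (3.46 with all libraries) and 2.38 for Slc11a1 (2.89). It was 1.60 for Fth1 (2.13) and 2.02 for Trf (2.40).

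**Figure D1:**
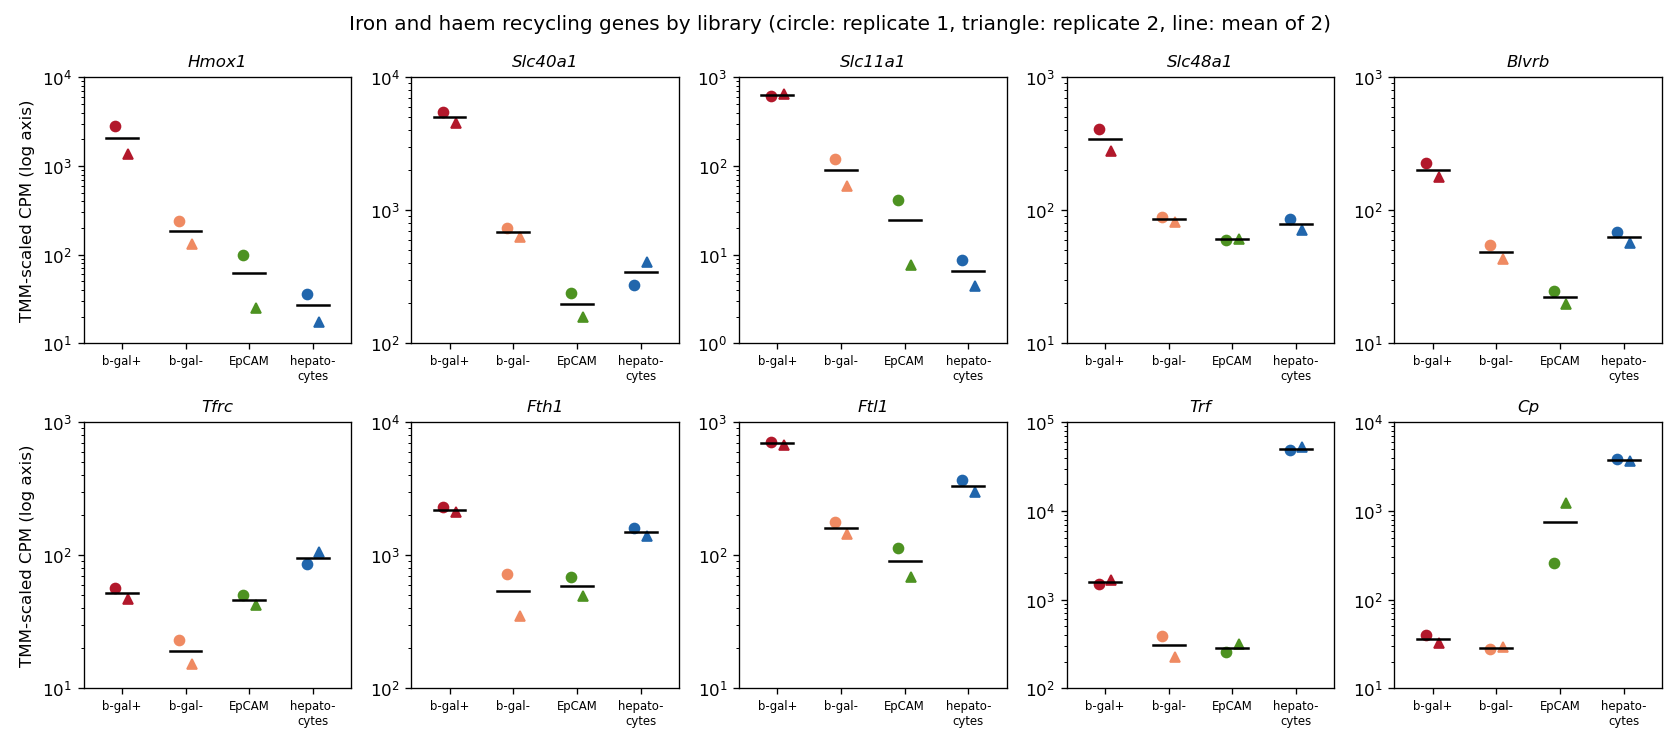
TMM-scaled CPM (log axis, range set per gene) of the 10 genes in the 8 libraries, by group: b-gal+ F4/80high, b-gal- F4/80high, EpCAM-positive and hepatocytes. Circles are replicate 1, triangles replicate 2, lines the mean of 2; the b-gal+ points lie above the b-gal- points for every gene, Cp included at 39.5 and 32.7 against 27.5 and 29.4 CPM.

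Haem handling genes were led by Hmox1 (chromosome 8, 75093621 to 75100589, plus strand). Hmox1 reached 2796 and 1378 CPM in the b-gal+ libraries, whereas the b-gal- libraries had 242 and 130, the EpCAM-positive libraries 98.2 and 25.2 and the hepatocyte libraries 36.1 and 17.5. Both b-gal+ libraries were above all the other 6, and replicate 1 was the higher of the pair in every group. The difference of b-gal+ over b-gal- was 3.46 on the log2 scale (SE 0.71, adjusted p = 0.0147 by limma). It no longer passed without b-gal+ replicate 1 (adjusted p = 0.087) or without b-gal- replicate 2 (0.0977). Hmox1 rose by 5.29 over EpCAM-positive cells (adjusted p = 0.00302) and by 6.26 over hepatocytes (adjusted p = 0.000296), which is a 76.5-fold level. The b-gal- libraries were above the EpCAM-positive ones, though the difference did not pass the test (log2 1.82, adjusted p = 0.141; 0.0318 without EpCAM-positive replicate 1), and the EpCAM-positive and hepatocyte libraries overlapped (0.97, adjusted p = 0.267).

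Slc48a1 encodes HRG1, which moves haem out of the phagolysosome, and Blvrb encodes biliverdin reductase B. In the b-gal+ libraries Slc48a1 (chromosome 15, 97778520 to 97792692, plus strand) stood at 410 and 278 CPM, the b-gal- pair had 89.7 and 81.1, the EpCAM-positive pair 60.1 and 61.0 and the hepatocyte pair 86.5 and 70.8. The b-gal+ libraries stood apart, and the other 3 groups lay within a narrow band. Slc48a1 rose by 1.98 (SE 0.21, adjusted p = 0.00155) over b-gal- cells, a call kept with any single library left out. Its differences between neighbours in the lower band did not pass (b-gal- minus hepatocytes 0.12, adjusted p = 0.636; EpCAM-positive minus hepatocytes -0.37, adjusted p = 0.169). Blvrb (chromosome 7, 27447978 to 27466144, plus strand) measured 227 and 177 CPM in b-gal+ replicates 1 and 2, the b-gal- replicates had 54.9 and 42.9, the EpCAM-positive replicates 24.7 and 19.8 and the hepatocyte replicates 68.6 and 56.9. Its order was b-gal+, hepatocytes, b-gal-, EpCAM-positive, and the b-gal- libraries lay just below the hepatocyte ones by a difference that did not pass the test (-0.36, adjusted p = 0.173). Blvrb rose by 2.04 over b-gal- cells (SE 0.21, adjusted p = 0.00141), again with any library left out. Slc48a1 shares 29 bases of exon with Hdac7 on the opposite strand, and strand use in counting is not given in the sources used here.

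Iron export and the phagosomal iron transporter came next. Slc40a1 (chromosome 1, 45908068 to 45926523, minus strand) encodes ferroportin, the iron exporter of macrophages, gut cells and hepatocytes. In the b-gal+ libraries the gene stood at 5457 and 4547 CPM, the b-gal- pair had 735 and 629, the EpCAM-positive pair 239 and 157 and the hepatocyte pair 275 and 408. No b-gal+ value came near any other group's. Slc40a1 rose by 2.87 over b-gal- cells (SE 0.32, adjusted p = 0.00172), by 4.68 over EpCAM-positive cells (adjusted p = 0.000607) and by 3.89 over hepatocytes (adjusted p = 7.11e-05), and these calls were kept with any 1 library left out. Between b-gal- cells and hepatocytes the log2 difference was 1.02 (adjusted p = 0.0277), which did not pass with edgeR's quasi-likelihood test (0.0697), without the filter on low counts (0.0552), or with hepatocyte replicate 1 (0.199) or either of the b-gal- libraries (0.127 and 0.0742) left out.

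Slc11a1 (chromosome 1, 74375195 to 74386062, plus strand) encodes NRAMP1, which pumps iron and manganese out of the phagosome of macrophages. C57BL/6 mice carry a loss-of-function allele of this gene and CBA mice a functional one. Which allele these mice carried was not read here. Slc11a1 reached 606 and 647 CPM in the b-gal+ libraries, whereas the b-gal- libraries had 120 and 58.9, the EpCAM-positive libraries 41.5 and 7.63 and the hepatocyte libraries 8.64 and 4.39. The b-gal+ replicates lay close together and the replicates of the other groups did not. Slc11a1 rose by 2.89 over b-gal- cells (SE 0.75, adjusted p = 0.0333), but this was the least firm of the 9 calls. Leaving out any of the 4 F4/80high libraries (adjusted p 0.0584 to 0.187) or either hepatocyte library (0.0657 and 0.0659) ended it, and edgeR's quasi-likelihood test gave 0.0504. The difference from hepatocytes was 6.55 (adjusted p = 0.00031), a 93.7-fold level.

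Read counts of Slc11a1 followed those of Adgre1 across the groups. The b-gal+ libraries held 0.350 and 0.475 Slc11a1 reads per Adgre1 read, the b-gal- libraries 0.385 and 0.440, the EpCAM-positive libraries 0.300 and 0.538 and the hepatocyte libraries 0.430 and 0.316. Adgre1 itself spanned 13.9 to 1731 CPM. All 8 ratios lay within the range of the EpCAM-positive pair. Hmox1 gave 1.62 and 1.01 reads per Adgre1 read in the b-gal+ pair, with 0.777 and 0.972 for the b-gal- pair, 0.711 and 1.78 for the EpCAM-positive pair and 1.80 and 1.26 for the hepatocyte pair. Both b-gal+ ratios and both hepatocyte ratios of Hmox1 were above the b-gal- pair, and the EpCAM-positive pair spanned the range of both F4/80high groups. For Slc40a1 the ratio was 3.15 and 3.34 with b-gal+ cells, 2.36 and 4.69 with b-gal-, 1.73 and 11.1 with EpCAM-positive and 13.7 and 29.4 with hepatocytes. Both hepatocyte ratios of Slc40a1 were above those of the other 6 libraries. These ratios are descriptions of 8 libraries and were not tested.

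**Figure D2:**
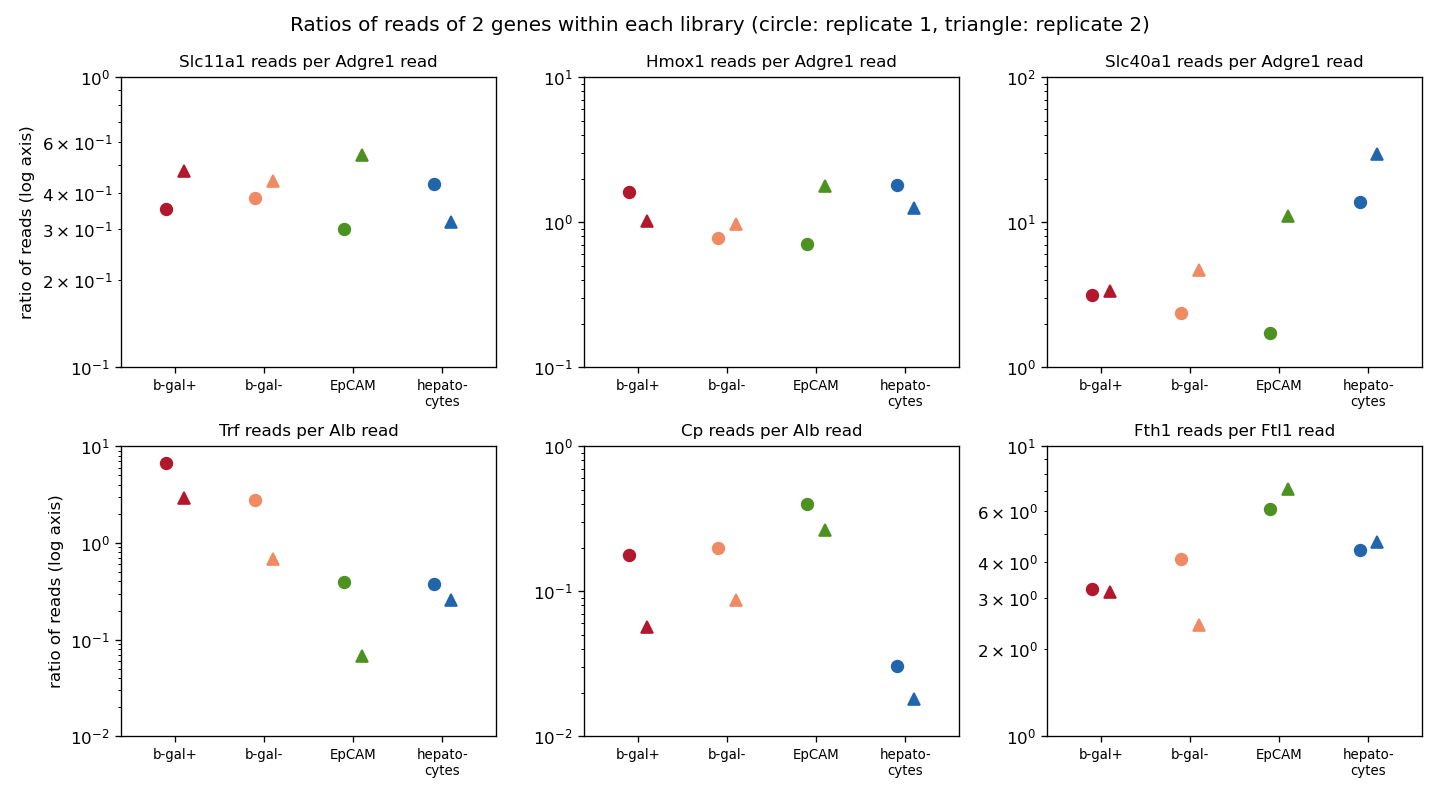
Ratios of reads of a pair of genes within each library (log axes), by group: b-gal+ F4/80high, b-gal- F4/80high, EpCAM-positive and hepatocytes; circles are replicate 1 and triangles replicate 2. Slc11a1 per Adgre1 read stayed between 0.300 and 0.538 in all 8 libraries, whereas Trf per Alb read was 6.70 and 2.90 in b-gal+ cells against 0.381 and 0.260 in hepatocytes.

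The genes for both chains of ferritin, the iron store, were called higher in b-gal+ than in b-gal- cells. Fth1 (chromosome 19, 9980598 to 9985098, plus strand) is the heavy chain, which has ferroxidase activity. It measured 2294 and 2119 CPM in b-gal+ replicates 1 and 2, the b-gal- replicates had 725 and 351, the EpCAM-positive replicates 691 and 491 and the hepatocyte replicates 1610 and 1405. Its level was high in b-gal+ cells and in hepatocytes, where the b-gal+ libraries were above the hepatocyte libraries but the difference did not pass the test (log2 0.55, adjusted p = 0.286). It was lower in the other groups, which overlapped each other (b-gal- minus EpCAM-positive -0.21, adjusted p = 0.796). Fth1 rose by 2.13 over b-gal- cells (SE 0.41, adjusted p = 0.0117), a call that ended with either b-gal+ library left out (0.0601 and 0.057) and with the second b-gal- library left out (0.0916). The light chain gene Ftl1 (chromosome 7, 45457944 to 45459884, minus strand) reached 710 and 675 CPM in the b-gal+ libraries, whereas the b-gal- libraries had 177 and 145, the EpCAM-positive libraries 114 and 68.8 and the hepatocyte libraries 368 and 301. Ftl1 rose by 2.11 over b-gal- cells (SE 0.26, adjusted p = 0.00238), with any library left out, and by 1.06 over hepatocytes (adjusted p = 0.0115), which ended without b-gal+ replicate 1 (0.0552) or hepatocyte replicate 2 (0.0782). Per Ftl1 read the b-gal+ libraries held 3.23 and 3.14 Fth1 reads, the b-gal- libraries 4.09 and 2.42, the EpCAM-positive libraries 6.08 and 7.13 and the hepatocyte libraries 4.38 and 4.66. The EpCAM-positive pair was the highest. GENCODE M21 lists 14 further genes and pseudogenes with names that begin with Fth or Ftl, and 0 of them were rows of the tables. Copies under other names were not looked for. The counts of both chains are uncertain by the reads that such copies share.

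Iron uptake showed another order. Tfrc (chromosome 16, 32608920 to 32632794, plus strand), the transferrin receptor gene, measured 56.7 and 47.3 CPM in b-gal+ replicates 1 and 2, the b-gal- replicates had 22.9 and 15.2, the EpCAM-positive replicates 50.3 and 42.4 and the hepatocyte replicates 85.9 and 106. The b-gal- libraries were lowest, and the b-gal+ and EpCAM-positive libraries overlapped (log2 0.16, adjusted p = 0.648). Tfrc rose by 1.45 over b-gal- cells (SE 0.24, adjusted p = 0.00611), with any library left out, the smallest of the 9 rises. It was lower in b-gal+ cells than in hepatocytes by limma (-0.88, adjusted p = 0.0156). That sign turned to 0.16 (adjusted p = 0.599) under the scaling of the deposited values, and the call ended without b-gal+ replicate 2 (0.077) or hepatocyte replicate 2 (0.0786). The 4 genes found to hold an iron-responsive element were called higher in b-gal+ than in b-gal- cells. These were Fth1, Ftl1 and Slc40a1, with it in the 5′ untranslated region, and Tfrc, with it in the 3′ untranslated region. Because 9 of all 10 genes were called higher there, the calls do not set these 4 apart.

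Plasma carriers were highest in hepatocytes. Trf (chromosome 9, 103204001 to 103230444, minus strand), the transferrin gene, reached 1488 and 1660 CPM in the b-gal+ libraries, whereas the b-gal- libraries had 388 and 228, the EpCAM-positive libraries 258 and 319 and the hepatocyte libraries 48129 and 52739. Trf alone made up 2.66% and 2.78% of the hepatocyte reads. Trf rose in b-gal+ over b-gal- cells by 2.40 (SE 0.41, adjusted p = 0.00746), which ended without b-gal+ replicate 2 (0.051), without b-gal- replicate 2 (0.114) and by edgeR's quasi-likelihood test (0.083). The b-gal+ cells held 6.70 and 2.90 Trf reads per Alb read, the b-gal- cells 2.81 and 0.681, the EpCAM-positive cells 0.396 and 0.0678 and hepatocytes 0.381 and 0.260. Both b-gal+ ratios and both b-gal- ratios were above both hepatocyte ratios, and Alb itself stood at 222 and 572 CPM in b-gal+ libraries. The exons of Trf overlap those of Gm20425 on the same strand over 2108 bases, and Gm20425 was not a row of the tables.

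Cp (chromosome 3, 19957054 to 20009145, plus strand) encodes ceruloplasmin, the plasma ferroxidase. In the b-gal+ libraries this gene stood at 39.5 and 32.7 CPM, the b-gal- pair had 27.5 and 29.4, the EpCAM-positive pair 259 and 1239 and the hepatocyte pair 3890 and 3701. The EpCAM-positive replicates were far apart, in the same direction as their hepatocyte markers (745 and 5147 CPM) and their cholangiocyte markers (2147 and 7113 CPM), whose part was not tested. Their ratio of Cp to Alb reads was 0.397 and 0.263, above the hepatocyte ratios of 0.0308 and 0.0182. The b-gal+ ratios of 0.178 and 0.0571 and the b-gal- ratios of 0.199 and 0.0877 were above the hepatocyte ratios too. Cp differed between b-gal+ and b-gal- cells by 0.33 (SE 0.63, adjusted p = 0.766), and its log2 difference in b-gal+ cells was -3.96 relative to EpCAM-positive cells (adjusted p = 0.00491) and -6.70 relative to hepatocytes (adjusted p = 0.000126).

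**Figure D3:**
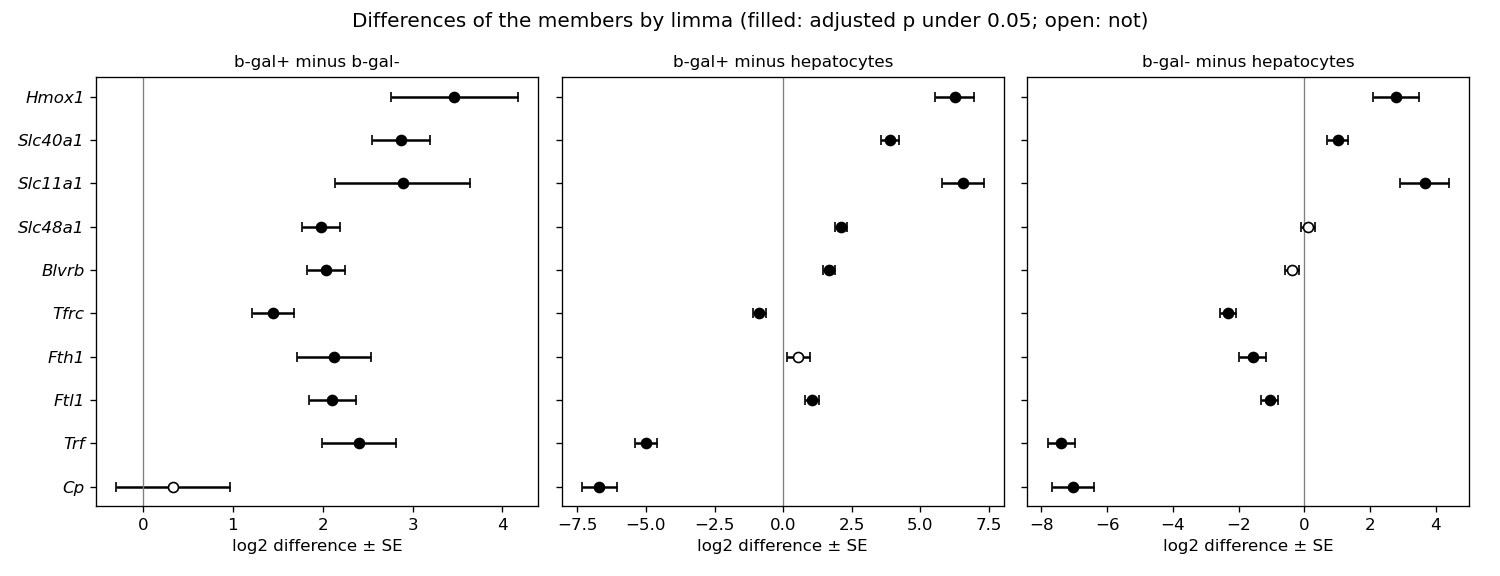
Log2 differences (points) with their standard errors (bars) by limma for the 10 genes in b-gal+ minus b-gal- cells, b-gal+ minus hepatocytes and b-gal- minus hepatocytes; filled points have an adjusted p under 0.05 and each panel has its own axis range. In the first panel 9 points are filled and all lie above 0; against hepatocytes Trf and Cp lie lowest, at -5.00 and -6.70 for b-gal+ cells.

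Against EpCAM-positive cells, b-gal+ cells were called higher for 8 of the 10 genes and lower for Cp, where 14.7% of all tested genes were called higher and 17.9% lower (32.5% in either direction). The median log2 difference was 2.71 over the 10 genes and -0.03 over all genes. Among the higher genes Hmox1 and Slc11a1 differed most (5.29 and 5.08), then Slc40a1 (4.68) and Blvrb (3.15). Fth1 (1.92, adjusted p = 0.0131) lost its call with either b-gal+ library (0.0624 and 0.0587) or EpCAM-positive replicate 2 (0.0547) left out, and in a fit of these groups alone (0.0797). Trf (2.45, adjusted p = 0.00578) lost it by edgeR's quasi-likelihood test (0.0587).

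Against hepatocytes, b-gal+ cells were called higher for 6 genes (Hmox1, Slc40a1, Slc11a1, Slc48a1, Blvrb and Ftl1) and lower for 3 (Tfrc, Trf and Cp), where 29.5% of all genes were called higher and 29.6% lower (59.2% in either direction). The b-gal- cells were called higher than hepatocytes for 3 genes and lower for 5, where 33.5% of all genes were called higher and 29.7% lower (63.2% in either direction). The 3 were Hmox1 (2.79, adjusted p = 0.0117), Slc40a1 (1.02) and Slc11a1 (3.66, adjusted p = 0.00457), and the 5 were Tfrc (-2.33), Fth1 (-1.58), Ftl1 (-1.05), Trf (-7.40) and Cp (-7.04). The call of Hmox1 ended without b-gal- replicate 1 (0.065) or hepatocyte replicate 2 (0.095). Those of both ferritin chains ended without b-gal- replicate 2 (0.101 for Fth1 and 0.07 for Ftl1) or hepatocyte replicate 1 (0.063 and 0.059), and either exclusion left 5 of the 10 genes called. EpCAM-positive cells were called lower than hepatocytes for 6 of the 10 genes by limma and higher for 0 (7 lower, with Slc40a1, and 0 higher at an unadjusted p under 0.05), where 33.5% of all genes were called higher and 29.1% lower (62.5% in either direction). Those 6 were Blvrb (-1.48), Tfrc (-1.04), Fth1 (-1.37), Ftl1 (-1.91), Trf (-7.45) and Cp (-2.74). DESeq2 also called Slc11a1 higher (0.0236) and Slc40a1 lower (0.0169). Leaving out EpCAM-positive replicate 2 gave calls of higher for Hmox1 (0.0383) and Slc11a1 (0.00567), leaving out EpCAM-positive replicate 1 gave one of lower for Slc40a1 (0.0364), and Cp lost its call without hepatocyte replicate 1 (0.0515). Fth1 lost it without EpCAM-positive replicate 2 (0.0948) or either hepatocyte library (0.0968 and 0.0656).

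These comparisons with hepatocytes hang on which scaling is used. DESeq2 size factors kept the split of the 10 genes found with TMM. It was 6 higher and 3 lower for b-gal+ cells, 3 and 5 for b-gal- cells, and 0 and 6 for EpCAM-positive cells. Under the scaling of the deposited values the median log2 difference of all genes from hepatocytes moved up by 1.00 for b-gal+ cells, 1.16 for b-gal- cells and 1.32 for EpCAM-positive cells. The share of called genes that were higher then moved to 76.7% from 49.9% for b-gal+ cells, to 79.7% from 53.0% for b-gal- cells and to 84.9% from 53.5% for EpCAM-positive cells. The 10 genes then split into 7 higher and 2 lower for b-gal+, 5 and 3 for b-gal-, and 3 and 1 for EpCAM-positive cells. For b-gal+ cells this added Fth1 (0.013) to the higher genes and dropped Tfrc (0.599) from the lower ones. For b-gal- cells it added Slc48a1 (0.00144) and Blvrb (0.0111) to the higher and dropped Fth1 (0.457) and Ftl1 (0.606). For EpCAM-positive cells it added Hmox1 (0.0209), Slc11a1 (0.013) and Slc48a1 (0.00528) to the higher and left Trf as the one lower gene. The same scaling moved the share to 32.5% from 44.4% between b-gal+ and b-gal- cells, to 25.6% from 45.1% between b-gal+ and EpCAM-positive cells and to 25.5% from 46.2% between b-gal- and EpCAM-positive cells, and left the split of the 10 genes at 9 and 0, 8 and 1, and 2 and 2.

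Between b-gal- and EpCAM-positive cells, 2 of the 10 genes were called higher (Slc40a1 at 1.81 and Blvrb at 1.12) and 2 lower (Tfrc at -1.29 and Cp at -4.29), where 5.63% of all genes were called higher and 6.57% lower (12.2% in either direction). This comparison was the least stable of the 6. The count of called genes by limma fell without any one of the b-gal- or hepatocyte libraries or EpCAM-positive replicate 2. It rose without EpCAM-positive replicate 1. Both held for the 10 genes and for all genes. Without b-gal- replicate 1 or 2 the log2 difference was 1.70 and 1.92 for Slc40a1 and 0.94 and 1.29 for Blvrb. It was -1.57 and -0.99 for Tfrc and -4.25 and -4.34 for Cp. With all libraries, edgeR and DESeq2 each called 4 of the 10 genes, and 1343 and 2855 of all genes.

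Levels can be compared between genes only per length. As RPKM, the TMM-scaled CPM divided by the length in kilobases of the principal coding transcript, the most abundant in b-gal+ cells were Slc40a1 at 1484 ± 191, Fth1 at 1477 ± 83 and Hmox1 at 1330 ± 639 RPKM (SD, n = 2 each), which overlapped. Ftl1 followed at 715 ± 26 RPKM, Trf at 612 ± 48 and Slc11a1 at 271 ± 12. Tfrc and Cp were lowest, at 10.6 ± 1.4 and 8.96 ± 1.21 RPKM. In b-gal- cells Fth1 was highest (360 ± 177 RPKM) and Slc40a1 next (202 ± 22 RPKM). In EpCAM-positive cells Fth1 led with 395 ± 95 RPKM and Cp came next with 186 ± 172 RPKM. In hepatocytes the order was Trf at 19617 ± 1268 RPKM, Fth1 at 1009 ± 97, Cp at 942 ± 33 and Ftl1 at 346 ± 48. Together the 10 genes took 1.5% and 1.25% of the b-gal+ reads, 0.305% and 0.206% of the b-gal- reads, 0.26% and 0.361% of the EpCAM-positive reads and 3.01% and 3.1% of the hepatocyte reads. Without Trf the hepatocyte shares were 0.355% and 0.32%, below those of b-gal+ cells without Trf at 1.34% and 1.07%.

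**Figure D4:**
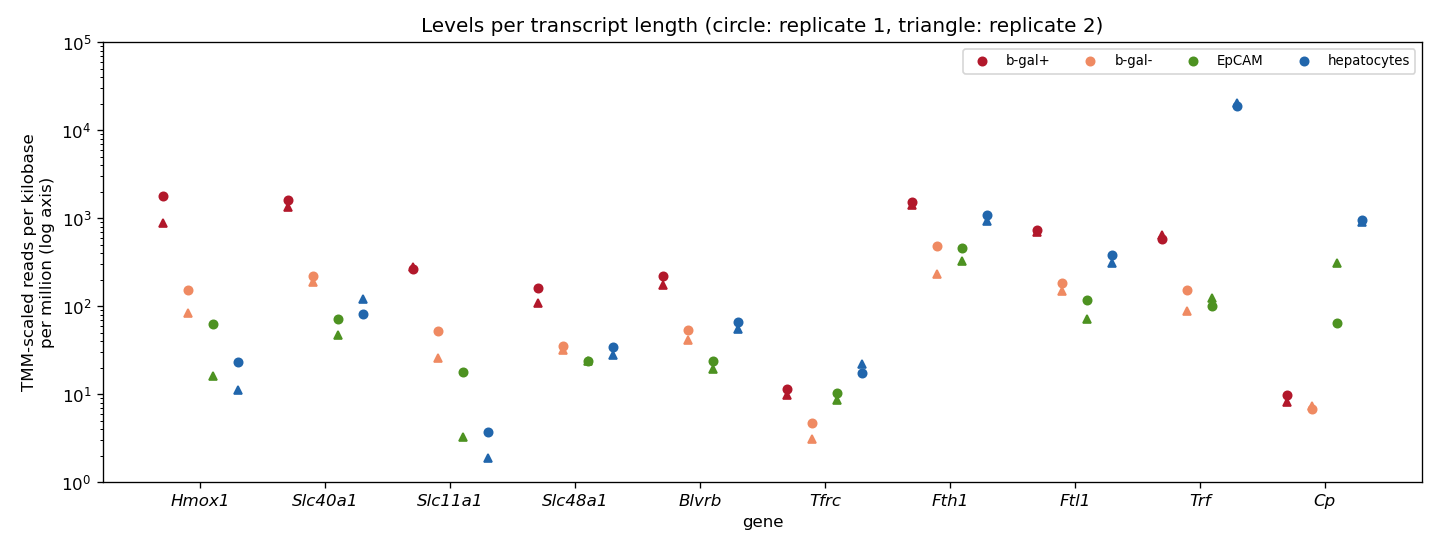
RPKM, the TMM-scaled CPM per kilobase of the principal coding transcript (log axis), of the 10 genes; colours give the group (b-gal+, b-gal-, EpCAM-positive, hepatocytes, left to right for each gene), circles replicate 1 and triangles replicate 2. Slc40a1, Fth1 and Hmox1 lie highest in b-gal+ cells, with means of 1484, 1477 and 1330 RPKM, and Trf in hepatocytes, with a mean of 19617 RPKM.

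The wider iron and haem pathway, in lists chosen with earlier results of these data known, did not move as 1 block. Of 65 listed genes besides the 10, 53 were in the tables and 51 were tested, of which 11 were called higher (21.6%) and 6 lower (11.8%) in b-gal+ than in b-gal- cells, where the shares over all tested genes were 10.4% and 13.0%. Their median log2 difference was 0.20, against -0.02 over all tested genes. With 4 to 11 genes tested per list, a list's count stands beside a share of 23.3% of all genes called in either direction. In the capture of haemoglobin and haem, 2 of 6 were called, both higher. Cd163, the receptor for haemoglobin bound to haptoglobin, had 1873 and 1237 CPM in b-gal+ cells against 102 and 67.4 in b-gal- cells (log2 4.19, adjusted p = 0.00542). Lrp1, which takes up haem bound to haemopexin, had 4401 and 3316 CPM in b-gal+ cells against 1164 and 456 in b-gal- cells (2.39, adjusted p = 0.0244). In haem breakdown and export, 2 of 4 were called, both higher: Blvra, biliverdin reductase A (2.09, adjusted p = 0.00691), and Hmox2, the constitutive haem oxygenase, at 129 and 119 CPM in b-gal+ cells against 67.2 and 60.6 in b-gal- cells (0.95, adjusted p = 0.0147). Cd163 kept its call with any single library left out. Lrp1 lost it without either b-gal+ library, b-gal- replicate 2 or either hepatocyte library (0.054 to 0.172), Blvra without the second library of either F4/80high group (0.0548 for b-gal+ and 0.0553 for b-gal-), and Hmox2 without any of the 4 F4/80high libraries (0.0509 to 0.106).

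Of 9 genes of haem synthesis 1 was called, the second enzyme of the pathway, Alad, which was lower at 22.5 and 20.5 CPM in b-gal+ cells against 58.4 and 80.4 in b-gal- cells (-1.65, adjusted p = 0.00557; 0.0521 without b-gal+ replicate 2). Relative to hepatocytes, 8 of the 9 synthesis genes, Alas2 among them, were called lower in each of the other 3 groups. The shares of all genes called lower were 29.6% (b-gal+), 29.7% (b-gal-) and 29.1% (EpCAM-positive). The median log2 difference of the 9 synthesis genes was -2.49 for b-gal+, -2.62 for b-gal- and -2.64 for EpCAM-positive cells. Under the scaling of the deposited values 8 were still called lower in each, with 1 called higher, and the medians were -1.44, -1.41 and -1.27. Among 11 genes of iron import and reduction, Slc11a2, the divalent metal transporter 1, was higher (0.63, adjusted p = 0.0435) and the metal importer Slc39a8 (-2.79, adjusted p = 0.00136) and the ferrireductase Steap2 (-3.00, adjusted p = 0.00416) were lower in b-gal+ than in b-gal- cells. Slc39a8 had 53.9 and 34.3 CPM in b-gal+ cells against 292 and 308 in b-gal- cells. The call of Slc11a2 ended without any of the F4/80high or hepatocyte libraries (0.0515 to 0.235) and under the scaling of the deposited values (0.0927), while those of Slc39a8 and Steap2 were kept throughout. Of 5 genes tested for storage handling, the mitochondrial importer Slc25a37 was lower (-1.52, adjusted p = 0.0449), a call that ended with either b-gal+ library, b-gal- replicate 2 or either hepatocyte library left out (0.104 to 0.217), with DESeq2 size factors (0.0564) and without the low-count filter (0.0672). Fitting the F4/80high libraries alone ended the calls of Slc25a37 (0.0884), Slc11a2 (0.074) and Lrp1 (0.0635). The other called gene of that list, Ncoa4, the receptor that delivers ferritin to the lysosome, lay outside the naming rule and was singled out after its values were seen. It had 19.8 and 12.3 CPM in b-gal+ cells against 3.88 and 2.10 in b-gal- cells (2.25, adjusted p = 0.0063; 0.0508 without b-gal- replicate 2).

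Among 5 iron sensing genes, Aco1, which encodes iron regulatory protein 1, was higher at 165 and 141 CPM in b-gal+ cells against 68.4 and 57.2 in b-gal- cells (1.28, adjusted p = 0.0126), and Epas1, the hypoxia factor HIF-2α, was lower at 167 and 119 against 908 and 1079 CPM (-2.81, adjusted p = 0.000901). The call of Aco1 ended without either b-gal+ library or b-gal- replicate 2 (0.0522 to 0.0941), and that of Epas1 was kept. Of 6 tested genes for ferroxidases and hepcidin control, the ferroxidase Heph was lower (-3.07, adjusted p = 0.0031) and Hfe, the haemochromatosis gene, higher (1.40, adjusted p = 0.00691; 0.0503 without b-gal- replicate 2). Of 5 regulators of iron-recycling macrophages, 3 were called, all higher. Spic, a factor needed for splenic red pulp macrophages in mice, had 191 and 139 CPM in b-gal+ cells against 17.6 and 8.61 in b-gal- cells (3.67, adjusted p = 0.0186), and Nr1h3, which encodes the sterol receptor LXRα, had 460 and 457 against 57.0 and 36.2 CPM (3.32, adjusted p = 0.00291). Mafk, a partner of the haem sensor BACH1, rose by 0.99 (adjusted p = 0.0282). Nr1h3 kept its call with any library left out, whereas Spic lost it without either b-gal+ library, b-gal- replicate 2 or either hepatocyte library (0.0501 to 0.119), and Mafk without any of the F4/80high libraries (0.0858 to 0.146) or under the scaling of the deposited values (0.05). The sum of the endothelial markers was lower in b-gal+ than in b-gal- libraries too, and its part in the lower values of Epas1, Heph, Steap2 and Slc39a8 was not tested.

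Across the 8 libraries, the genes whose log2 levels were most like each of the 10 were taken from 7903 genes that averaged 20 CPM or more. Pearson's r is given as a description, since the libraries fall into 4 groups of 2. Slc11a1 was most like C1qb (r = 0.998), Tlr7 (0.997) and Fcgr1 (0.997), and Hmox1 like Wfdc17 (0.993), Capza2 (0.993) and Marco (0.993). Slc40a1 was most like Slc35f6 (0.997), Fam21 (0.992) and Hfe (0.991). C1qb and Marco are in the list of Kupffer cell markers. Slc48a1 was most like Frmd4b (0.985), Blvrb like Acp2 (0.988), Fth1 like Pddc1 (0.979), Ftl1 like Usf2 (0.993) and Trf like Retsat (0.996). Tfrc had the weakest match (Nmd3, 0.971) and Cp the closest (Tmem30b, 0.999). Among the 10 themselves, the correlation was 0.986 between Hmox1 and Slc11a1 and 0.966 between Blvrb and Ftl1, and it was -0.884 between Slc11a1 and Cp.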

How the data were processed

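RNA from the 4 populations was sequenced in 8 libraries. Per the submitters' processing notes, reads were assigned to genes with HTSeq on GRCm38.p4 (mm10). The aligner, annotation, versions, strand setting and treatment of multi-mapped reads are not named by any source used here. Deposited tables hold read counts per gene, plain in hepatocyte replicate 1 and multiplied by 1 factor per library (1.08 to 1.54) by the authors in the other 7. What the factor stands for is not given in the sources used here. Dividing by the factor gave whole reads for 100% of values within 0.01 reads. In each table, 14 rows with a date in place of a symbol (0.0514% to 0.182% of reads) were left out.

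Reads were filtered with filterByExpr of edgeR 4.0.16, scaled by TMM (factors 0.527 to 1.48), and tested with limma 3.58.1 (trend) on log2(CPM + 0.5) with 1 mean per group over all 8 libraries in R 4.3.3. Because 7 of the tables were not plain counts, limma was the main test, and edgeR's quasi-likelihood test and DESeq2 1.42.0 were alternatives, beside other scalings, pseudocounts of 1 and 0.1 CPM, no filter (17832 genes), 2 groups in the fit, a replicate block and each library left out. Where that left 1 library in a group, it was assumed to vary like the others. The code of the fit was run on simulated data in which genes differed in the b-gal+ libraries alone. The real groups differ from each other more widely, so that run does not bear on the calls given here. The labels say that each library pooled 2 mice but not whether replicates were separate pools, so p-values measure the spread between these libraries, which may be technical. Replicates correlated at a Spearman rho of 0.926 (EpCAM-positive) and 0.980 to 0.985 (other groups).

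The 10 genes, the wider lists and the markers were chosen with earlier results of these data known. All 10 were described in every comparison. From each wider list, up to 4 genes that were called in b-gal+ minus b-gal- and differed most there, with a mean of at least 10 CPM over the F4/80high libraries were named. The 3 most similar genes were taken per gene, leaving out predicted genes. Transcript lengths, positions and hairpins came from GENCODE M21.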

Additional observations from a re-analysis of the deposited data

How the results depend on the processing

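Of 540 log2 differences of the 10 genes recomputed under another scaling, filter, pseudocount, test or design, 503 kept their direction and side of the threshold, 15 lost a call, 12 gained one and 10 reversed. Of 480 with 1 library left out, 418 were kept, 51 lost, 6 gained and 5 reversed. The b-gal- minus EpCAM-positive comparison was the least stable. The 10 genes had 4 calls there, against 0 in a fit of these groups alone (6 with an unadjusted p under 0.05) and 7 with a replicate block, and all genes had 1757 calls against 2855 by DESeq2 and 0 in the fit of these groups alone by limma (3318 unadjusted). The b-gal+ minus EpCAM-positive comparison had 4685 genes called, and 2167 in a fit of these groups alone. Leaving out 1 library gave 5 to 9 of the 10 genes and 1320 to 4390 of all genes in b-gal+ minus b-gal-, 1972 to 5483 of all genes in b-gal+ minus EpCAM-positive, 0 to 7 of the 10 and 0 to 2810 of all genes in b-gal- minus EpCAM-positive, and 5 to 8 of the 10 in b-gal- minus hepatocytes. The replicate block left the 9 calls of b-gal+ minus b-gal- at 9. It added calls for Hmox1 (0.018), Slc11a1 (0.0439) and Ftl1 (0.0347) in b-gal- minus EpCAM-positive, Hmox1 (0.0202) and Slc11a1 (0.0482) in EpCAM-positive minus hepatocytes and Blvrb (0.0273) in b-gal- minus hepatocytes, and ended none of the 10 genes' calls. Deviations of same-numbered libraries correlated positively in all 6 comparisons, at 0.177 to 0.494, and what same-numbered libraries share was not tested. Replicate numbers are not stated to mark shared mice, and for that reason the block is not used elsewhere.

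Reversals under the scaling of the deposited values, whose own shift of all genes is given with the hepatocyte comparisons, were Tfrc at -0.16 in b-gal+ minus EpCAM-positive and 0.16 in b-gal+ minus hepatocytes, Trf at -0.11 in b-gal- minus EpCAM-positive, Blvrb at 0.84 and Ftl1 at 0.16 in b-gal- minus hepatocytes, and Slc40a1 at 0.58, Slc48a1 at 1.00, Tfrc at 0.32 and Fth1 at 0.0070 in EpCAM-positive minus hepatocytes. With DESeq2 size factors Trf was -0.012 in b-gal- minus EpCAM-positive. With 1 library left out, Fth1 spanned -0.73 to 0.32 and Trf -0.33 to 0.43 in b-gal- minus EpCAM-positive, and Slc48a1 -0.090 to 0.21 in b-gal- minus hepatocytes. The cause was not tested. None of the 40 group levels moved by more than 1 SD with DESeq2 size factors.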

Other observations

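Of the wider lists, 3 genes were singled out after their values were seen. Hamp, which encodes hepcidin, stood at 1360 and 1654 CPM in the hepatocyte libraries, whereas the other 6 libraries had at most 4.79 CPM. Tfr2, the hepatocyte transferrin receptor that senses plasma iron, and Tmprss6, a protease that lowers hepcidin, had similar levels in both hepatocyte replicates (1435 and 1532 CPM for Tfr2, 1344 and 1626 CPM for Tmprss6).

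Some iron and haem binding genes differed between replicates 1 and 2, and Hp, Lcn2 and Hamp2 did so in the same direction in every group; they too were chosen after their values were seen. The gene for haptoglobin, Hp, had 199 and 25.1 CPM (b-gal+), 309 and 35.9 CPM (b-gal-), 231 and 30.9 CPM (EpCAM-positive) and 15178 and 4778 CPM (hepatocytes) for replicates 1 and 2. Lcn2, which binds bacterial iron carriers, stood at 8.63 and 0.322 CPM (b-gal+), 20.04 and 0.783 CPM (b-gal-), 44.6 and 24.5 CPM (EpCAM-positive) and 1018 and 59.1 CPM (hepatocytes). Hamp2, the second hepcidin gene, was higher in replicate 2 of each group, at 0.358 and 1.81 CPM (b-gal+), 0 and 1.03 CPM (b-gal-), 0.122 and 2.95 CPM (EpCAM-positive) and 234 and 884 CPM (hepatocytes). Hpx, haemopexin, was higher in replicate 1 of 3 groups, with 46.8 and 30.1 CPM (b-gal+), 24.3 and 18.6 CPM (b-gal-) and 21663 and 8826 CPM (hepatocytes), while its EpCAM-positive values were 11.4 and 21.7 CPM. In hepatocytes Scara5, a ferritin receptor, had 75.4 and 0.718 CPM, from 1021 and 9 reads.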
